A study of Mus musculus with 18 samples.

Results

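The salt-inducible kinases (Sik1, Sik2 and Sik3), the CRTC coactivators of CREB (Crtc1, Crtc2 and Crtc3) and the class IIa histone deacetylases (Hdac4, Hdac5, Hdac7 and Hdac9) were followed in brown adipocytes. They were taken from the deposited count table by gene symbol, and the 10 genes are 10 of 17672 in the table. To ask which transcriptional responses depend on lipolysis, the study used an immortalised mouse brown adipocyte line in which every sample carries a stable shRNA against Abhd5 and an mCherry-tagged, shRNA-resistant ABHD5 that doxycycline (Dox) switches on. ABHD5 activates the triglyceride lipase ATGL. Cells without Dox are labelled ABHD5 KD, and cells given Dox at 1 µg/ml are labelled WT. The labels put Dox exposure at 24 to 48 h in general, and the description of the RNA-seq experiment itself at 24 h. Both were exposed for 3 h to the vehicle DMSO, to the β-adrenergic agonist isoproterenol (ISO, 10 nM) or to SR-3420 (20 µM), a ligand of ABHD5. The 6 groups (DMSO, ISO and SR-3420, each without and with Dox) had 3 libraries each. The line was immortalised as preadipocytes and differentiated in culture, whether it is a single clone is not given in the sources used here, and an effect of doxycycline itself cannot be told apart from that of the ABHD5 it switches on.

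SIKs are kinases activated by LKB1. They phosphorylate CRTCs and class IIa HDACs, which then bind 14-3-3 proteins and stay in the cytoplasm. When β-adrenergic receptors raise cAMP, protein kinase A phosphorylates the SIKs and blocks this action. CRTCs, which the phosphatase calcineurin also dephosphorylates, then enter the nucleus and drive CREB target genes. Class IIa HDACs enter as well and repress MEF2-dependent genes, largely through HDAC3. In brown fat this kinase arm is known to hold back Ucp1 and Ppargc1a. The phosphorylation and the location of these proteins are not measured by RNA-seq, which shows only the RNA of their genes.

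Total counts per library ranged from 689910 to 1956565, and the 10 most abundant genes took 16.3% to 26.5% of the counts in 17 libraries. They took 35.6% in SR-3420 with Dox replicate 1, which stands apart. Changes by SR-3420 with Dox are therefore also given without it. Abhd5 was 52.6 ± 4.71 CPM (counts per 1000000 of the scaled library size, mean ± SD, n = 3) in DMSO without Dox and 574 ± 86.1 CPM with Dox, in the direction of the labels. ISO raised it to 149 ± 21.9 CPM without Dox (log2 fold change 1.5045, SE 0.18, edgeR adjusted p 3.34e-07) and to 827 ± 28.5 CPM with Dox (0.52, SE 0.14, edgeR adjusted p 0.00502), and the interaction passed (-0.98, SE 0.23, edgeR adjusted p 0.0194), so Abhd5 RNA differed less between the Dox states under ISO than under DMSO. In SR-3420 it was at 75.7 ± 4.21 CPM without and 695 ± 140 CPM with Dox. Of 9 adipocyte marker genes in the table, all were detected, and their summed level was 2033 to 2251 CPM in DMSO without Dox, 2130 to 2483 CPM in ISO without Dox, 3019 to 3259 CPM in SR-3420 without Dox, 2483 to 2668 CPM in DMSO with Dox, 4321 to 4564 CPM in ISO with Dox and 3765 to 4724 CPM in SR-3420 with Dox. Preadipocyte markers summed to 509 to 1177 CPM over the libraries. Macrophage markers summed to 2.25 to 18.3 CPM, and 4 of the 5 in the table averaged under 1 CPM. In RNA from whole cultures, fewer cells of a type and less RNA per cell cannot be told apart.

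All 10 genes passed the filter on low counts. The length counted for each was 88.8% to 107% of its intron length in the mm9 annotation for 9 of the 10. For Crtc2 (6282 counted against 5869 intron bases) and Hdac5 (28239 against 26961) it was longer than the introns. Introns here exclude the exons of all annotated transcripts, so this does not show that exon bases were counted. Counts from exons and introns were not separated here. Abhd5 went from 52.6 to 574 CPM in DMSO with Dox, which switches on an introduced ABHD5 construct. The values are therefore not taken as intron RNA alone. For Sik1 the counted 4552 bases lay close to its 4509 exon bases and were 64.7% of its intron length, which leaves unsettled which of these was counted. A gene is said to pass at an adjusted p of 0.05 or less in edgeR's quasi-likelihood test, adjusted by Benjamini-Hochberg over the 10178 genes tested, and all fold changes below are log2 fold changes with their standard error (SE) and that adjusted p.

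To show where the core of the CREB-binding site lies at the starts of these genes, the 300 bases from 250 before to 50 after the start were taken from a RefSeq promoter table built on GRCm38, in which 8 of the 10 genes were found, all except Sik1 and Crtc2. Each sequence matched mm9 exactly and once on its chromosome. They were searched on both strands for TGACG, the core of the cAMP response element that CREB binds. This core, read as TGACG or on the other strand as CGTCA, is in capitals in the promoters of Hdac4 (mm9 chr1:94076869-94077168, minus strand, upstream of the start listed in the count table), Sik3 (chr9:45820653-45820952, plus strand), Sik2 (chr9:50817129-50817428, minus strand) and Hdac5 (chr11:102091437-102091736, minus strand), each printed 5′ to 3′ along its gene.
Hdac4: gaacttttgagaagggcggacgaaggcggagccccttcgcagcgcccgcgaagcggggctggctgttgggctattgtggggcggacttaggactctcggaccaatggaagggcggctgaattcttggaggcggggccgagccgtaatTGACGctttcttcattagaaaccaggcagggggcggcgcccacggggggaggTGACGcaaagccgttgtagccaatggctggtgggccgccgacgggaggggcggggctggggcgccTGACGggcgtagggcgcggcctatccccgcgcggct
Sik3: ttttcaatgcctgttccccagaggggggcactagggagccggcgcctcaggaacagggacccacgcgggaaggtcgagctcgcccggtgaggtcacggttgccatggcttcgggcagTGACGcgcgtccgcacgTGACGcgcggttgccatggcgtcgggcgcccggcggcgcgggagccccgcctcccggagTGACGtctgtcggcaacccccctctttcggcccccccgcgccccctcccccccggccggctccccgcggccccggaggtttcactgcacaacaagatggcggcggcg
Sik2: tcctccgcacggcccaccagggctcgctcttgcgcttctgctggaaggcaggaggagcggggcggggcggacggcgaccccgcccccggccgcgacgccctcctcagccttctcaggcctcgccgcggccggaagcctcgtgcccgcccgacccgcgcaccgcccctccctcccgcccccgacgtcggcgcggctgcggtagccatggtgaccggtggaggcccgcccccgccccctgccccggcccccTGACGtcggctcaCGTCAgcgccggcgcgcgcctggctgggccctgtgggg
Hdac5: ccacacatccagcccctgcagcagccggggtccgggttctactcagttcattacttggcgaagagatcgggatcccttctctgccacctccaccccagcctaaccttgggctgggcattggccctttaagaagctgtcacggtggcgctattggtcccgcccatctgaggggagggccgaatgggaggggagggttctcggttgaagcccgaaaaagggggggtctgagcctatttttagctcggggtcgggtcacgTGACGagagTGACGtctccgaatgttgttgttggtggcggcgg

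Hdac4 held 3 cores, starting at -103, -51 and 15, where the start is base 1 and the base before it -1. Sik3 also held 3, at -133, -116 and -57. The cores of Sik2 lay at -1 and 13 on opposite strands, and those of Hdac5 at 8 and 17. Among all 32851 promoters of the table, 20.8% held at least 1 core, 5.01% at least 2 and 1.04% at least 3. The full palindrome TGACGTCA, which contains the core on both strands and is present in 1.79% of all promoters, was in none of those of the 8 genes. The letters TGACG and CGTCA were not in the windows of Crtc1, Crtc3, Hdac7 (4 starts) or Hdac9 (2 starts). Genes with the core thus include 1 that ISO lowered (Hdac5) beside 3 that it raised. Of those without it, ISO without Dox raised Crtc3 and Hdac7 and lowered Crtc1. The Hdac4 window begins at 94076869 and the counted gene ends at 94044970, so its cores lie at a start outside the counted gene.

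The levels of the genes spanned several orders of magnitude when divided by counted length (CPM per kb). In DMSO without Dox, Crtc2 was highest at 20.9 CPM per kb, followed by Hdac5 at 5.63. Sik2 (2.09) and Sik1 (1.98) came next, and their libraries overlapped. Hdac7 was at 1.38, Crtc1 at 0.926 and Sik3 at 0.565 CPM per kb. Crtc3 (0.232) and Hdac4 (0.163) also overlapped, and Hdac9 was lowest at 0.0112 CPM per kb. In ISO with Dox the order changed. Crtc2 stayed first at 33.1 CPM per kb, Sik1 (7.60) and Sik2 (5.74), which overlapped each other, now stood above Hdac5 (3.24), and Hdac4 (0.5002) stood above Crtc3 (0.264). Sik3 lay between at 1.21, while Hdac7 (0.819) and Crtc1 (0.757) overlapped, and Hdac9 was again last at 0.0100. Because the counted region of Sik1 may be exonic, its place in these orders is uncertain. The orders also depend on the counted length, which ran from 4552 bases for Sik1 to 838428 for Hdac9. In CPM, Sik1 (9.03) and Hdac9 (9.36) were close in DMSO without Dox. Reads from exons and introns were not separated, so the other places, including those of Crtc2 and Hdac5, are uncertain as well.

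**Figure D1:**
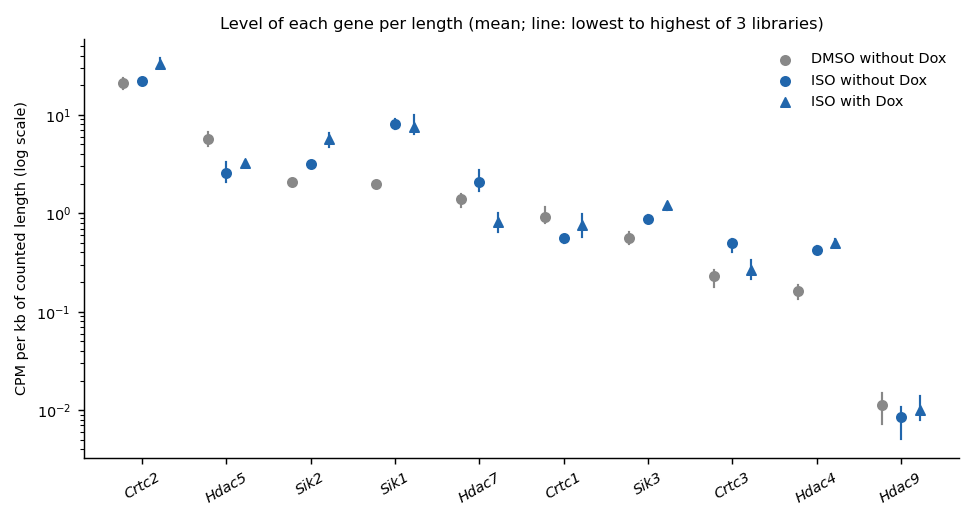
Level of each gene as CPM per kb of counted length on a log axis, in DMSO without Dox (grey circles), ISO without Dox (blue circles) and ISO with Dox (blue triangles). Symbols are means of 3 libraries and lines run from the lowest to the highest library. Crtc2 is at the top in each of these groups (20.9 to 33.1 CPM per kb) and Hdac9 at the bottom, while Hdac4 moved from 0.163 to 0.5002 CPM per kb between DMSO without Dox and ISO with Dox.

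The agonist changed most of these genes. ISO without Dox passed for 8 of the 10, of which 6 rose and 2 fell, against 28% of all genes tested (14.5% higher and 13.5% lower). With Dox, 7 passed, of which 5 rose and 2 fell, against 32.5% of all genes (16.4% higher and 16.1% lower). The median log2 fold change of the 10 genes was 0.60 without Dox and 0.21 with Dox, beside -0.01 and -0.02 over all genes. The comparisons use separate DMSO libraries. The 10 genes were a choice made with earlier results known, so these counts describe them and do not test them as a set. Under the study's stricter rule, which also asks for a log2 change of 1 or more in either direction, 4 passed without Dox (background 10.9%) and 4 with Dox (13.1%).

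**Figure D2:**
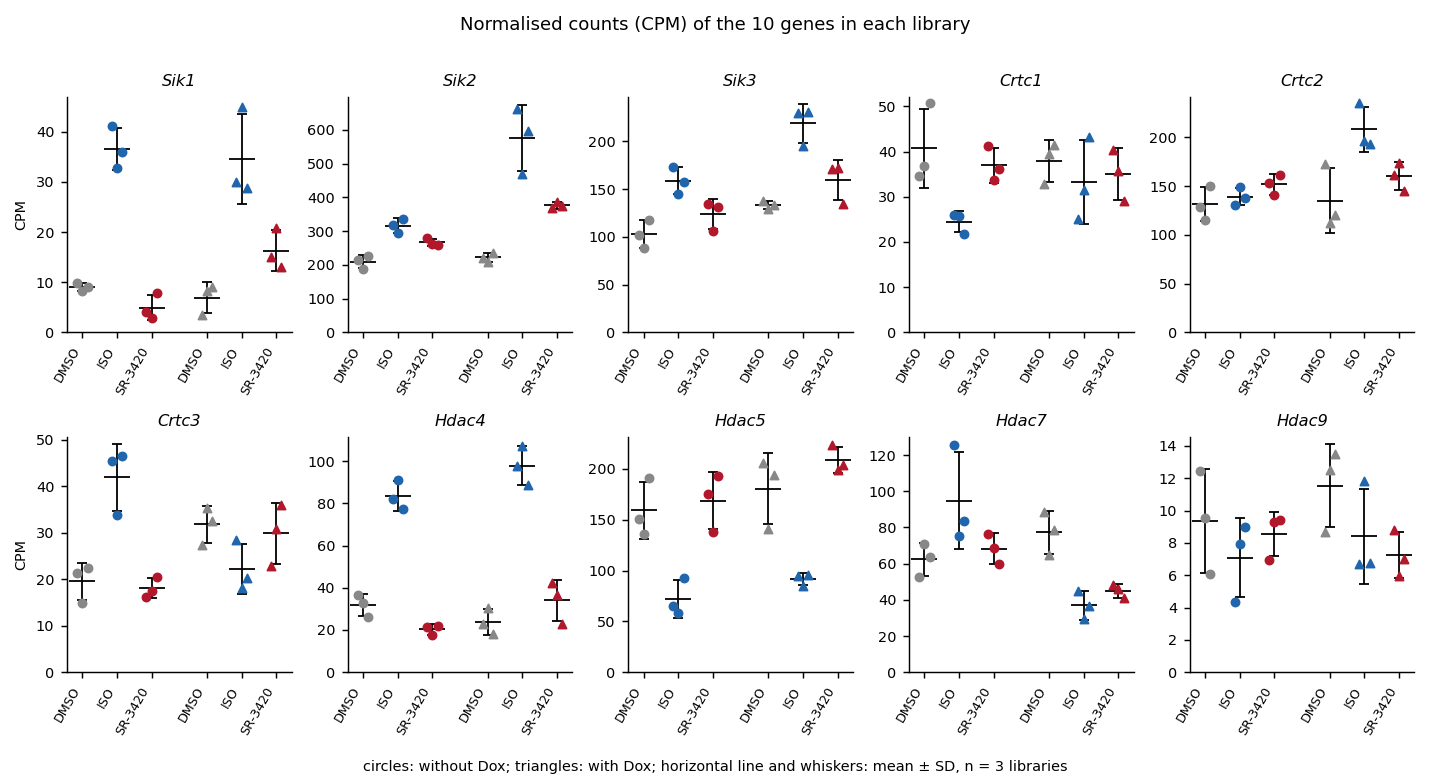
CPM of each of the 10 genes in every library (circles without Dox, triangles with Dox; grey DMSO, blue ISO, red SR-3420), with the mean and SD of 3 libraries. Sik1, Sik2, Sik3 and Hdac4 are higher in every ISO library than in every DMSO library of the same Dox state and Hdac5 is lower, whereas Hdac7 is below its DMSO libraries in ISO with Dox (29.1 to 45.02 against 64.5 to 88.6 CPM) and above them in ISO without Dox.

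Sik1 (NM_010831, mm9 chr17:31981195-31992737, minus strand), the family member whose own transcription cAMP induces, was the most strongly raised of the kinases. Its libraries gave 9.79, 8.16 and 9.13 CPM in DMSO without Dox and 41.1, 32.7 and 36.0 CPM in ISO without Dox. With Dox it was at 3.37, 8.33 and 8.99 CPM in DMSO and at 30.01, 44.9 and 28.9 CPM in ISO. Every ISO library was above every DMSO library, and the ISO levels with and without Dox overlapped. The log2 fold change was 1.99 (SE 0.33, edgeR adjusted p 4.57e-05) without Dox and 2.51 (SE 0.34, edgeR adjusted p 1.31e-06) with Dox. These values rest on 5 to 57 counts per library over the 6 groups.

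Sik2 (NM_178710, mm9 chr9:50700906-50817178, minus strand), a kinase abundant in adipose tissue, rose in both states and rose further with Dox. Without Dox it went from 214, 189 and 226 CPM in DMSO to 319, 293 and 336 CPM in ISO. With Dox it went from 221, 209 and 236 CPM to 662, 469 and 598 CPM. The DMSO levels overlapped between the states, and the lowest ISO library with Dox was above the highest ISO library without Dox. The log2 fold changes were 0.59 (SE 0.14, edgeR adjusted p 0.00156) and 1.37 (SE 0.13, edgeR adjusted p 3.07e-09). Their difference, the interaction of ISO and Dox, was 0.78 (SE 0.19, edgeR adjusted p 0.0231). The interaction no longer passed when any 1 of 5 libraries was left out, namely DMSO replicate 1 (0.77), DMSO replicate 3 (0.72) or ISO replicate 2 (0.75) without Dox, or DMSO replicate 2 (0.75) or ISO replicate 1 (0.67) with Dox, nor on library totals only (0.83), and the change without Dox no longer passed on library totals only (0.42, edgeR adjusted p 0.066).

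Sik3 (NM_027498, mm9 chr9:45820903-46032277, plus strand), the kinase of the family with the longest gene, rose by similar amounts in both states. Its libraries gave 101, 88.4 and 118 CPM in DMSO without Dox against 173, 145 and 158 CPM in ISO. With Dox they gave 137, 129 and 134 CPM in DMSO against 230, 195 and 231 CPM in ISO. No ISO library overlapped the DMSO libraries of its state. The log2 fold changes were 0.62 (SE 0.15, edgeR adjusted p 0.00232) and 0.71 (SE 0.14, edgeR adjusted p 0.000207), with an interaction of 0.09 (SE 0.20, edgeR adjusted p 0.889). On library totals only the change without Dox was 0.45 (edgeR adjusted p 0.0554).

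Of the 3 CRTC genes, ISO changed Crtc1 and Crtc3 without Dox, in opposite directions, and Crtc2 with Dox. Crtc1 (NM_001004062, mm9 chr8:72906257-72963472, minus strand), known best from neurons, gave 34.7, 36.7 and 50.7 CPM in DMSO and 25.9, 25.8 and 21.8 CPM in ISO without Dox. All ISO libraries lay below the DMSO libraries. The fall of -0.75 on the log2 scale (SE 0.24, edgeR adjusted p 0.0187) did not pass with DESeq2 (-0.74, adjusted p 0.0509) or when replicate 3 of DMSO (-0.55) or of ISO (-0.65) was left out. With Dox, Crtc1 was at 32.7, 39.6 and 41.6 CPM in DMSO and at 25.0, 31.5 and 43.3 CPM in ISO, which overlapped (-0.17, SE 0.22, edgeR adjusted p 0.583). The interaction of 0.57 (SE 0.32, edgeR adjusted p 0.433) did not pass.

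Crtc2 (NM_028881, mm9 chr3:90058203-90068047, plus strand), the coactivator known from hepatic gluconeogenesis, passed with Dox. Without Dox it gave 129, 116 and 150 CPM in DMSO and 131, 149 and 138 CPM in ISO, and the groups overlapped (0.08, SE 0.16, edgeR adjusted p 0.76). With Dox it gave 173, 112 and 120 CPM in DMSO and 235, 196 and 193 CPM in ISO, with every ISO library above every DMSO library. That log2 fold change was 0.59 (SE 0.15, edgeR adjusted p 0.00261). The interaction of 0.52 (SE 0.22, edgeR adjusted p 0.24) did not pass, so a difference between the states was not shown.

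Crtc3 (NM_173863, mm9 chr7:87731518-87833763, minus strand), the member with a known role in adipocyte energy expenditure, rose without Dox and showed no such rise with Dox. Without Dox its libraries were at 21.4, 14.96 and 22.3 CPM in DMSO and at 45.4, 33.7 and 46.5 CPM in ISO. With Dox they were at 27.4, 35.4 and 32.6 CPM in DMSO and at 28.3, 18.1 and 20.2 CPM in ISO. All ISO libraries without Dox were above their DMSO libraries, whereas the highest ISO library with Dox lay within the DMSO range. The log2 fold change was 1.07 (SE 0.25, edgeR adjusted p 0.00159) without Dox and -0.48 (SE 0.24, edgeR adjusted p 0.122) with Dox, and the interaction was -1.56 (SE 0.34, edgeR adjusted p 0.0114). It passed in all 21 alternatives, between -1.78 and -1.40. A non-coding transcript, Gm15880, overlaps Crtc3 on the other strand over 8368 bases.

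Among the class IIa HDACs, Hdac4 rose and Hdac5 fell in both states. Hdac4 (NM_207225, mm9 chr1:93829332-94044970, minus strand), a deacetylase that SIKs phosphorylate, was at 36.5, 32.6 and 26.4 CPM in DMSO and at 82.1, 91.2 and 77.3 CPM in ISO without Dox. With Dox it was at 22.6, 30.2 and 17.98 CPM in DMSO and at 97.5, 107 and 88.6 CPM in ISO. The ISO libraries stood well above all DMSO libraries in both states. Its log2 fold changes were 1.38 (SE 0.20, edgeR adjusted p 7.42e-06) and 2.05 (SE 0.20, edgeR adjusted p 3.82e-09), and the interaction of 0.67 (SE 0.29, edgeR adjusted p 0.266) did not pass. A lincRNA, Gm17418, overlaps 3578 bases of the gene on the other strand.

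Hdac5 (NM_010412, mm9 chr11:102057061-102091486, minus strand), another MEF2 repressor, gave 150, 136 and 191 CPM in DMSO and 64.8, 58.5 and 93.1 CPM in ISO without Dox. With Dox it gave 206, 141 and 194 CPM in DMSO and 94.2, 85.1 and 95.3 CPM in ISO. Each ISO library was lower than every DMSO library. The log2 fold change was -1.12 (SE 0.18, edgeR adjusted p 2.87e-05) without Dox and -0.99 (SE 0.17, edgeR adjusted p 5.03e-05) with Dox, and the interaction was 0.13 (SE 0.25, edgeR adjusted p 0.865). Hdac4 and Hdac5 thus moved in opposite directions with ISO in cells with and without Dox.

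Hdac7 (NM_001204278, mm9 chr15:97623095-97674933, minus strand), the class IIa member known from endothelium and thymocytes, moved in opposite directions with and without Dox. Without Dox its libraries gave 52.5, 70.7 and 63.9 CPM in DMSO and 125, 75.3 and 83.3 CPM in ISO. With Dox they gave 88.6, 64.5 and 78.6 CPM in DMSO and 45.0, 29.1 and 36.6 CPM in ISO. ISO libraries lay above the DMSO libraries without Dox and below them with Dox. The fall with Dox was -1.09 (SE 0.20, edgeR adjusted p 0.000112), and the interaction was -1.69 (SE 0.28, edgeR adjusted p 0.000577), which passed in all 21 alternatives, between -1.87 and -1.46. The rise without Dox was 0.60 (SE 0.19, edgeR adjusted p 0.019). It did not pass on library totals only (0.44, edgeR adjusted p 0.128), nor when DMSO replicate 1 (0.48, edgeR adjusted p 0.123) or ISO replicate 1 (0.37, edgeR adjusted p 0.185) was left out.

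Hdac9 (NM_001271386, mm9 chr12:34732447-35601767, minus strand), the class IIa member with the longest gene here, held 4 to 18 counts per library. It was at 12.5, 9.52 and 6.09 CPM in DMSO and 4.32, 7.93 and 9.01 CPM in ISO without Dox, and at 8.67, 12.5 and 13.5 CPM in DMSO and 6.67, 11.8 and 6.74 CPM in ISO with Dox. The groups overlapped in both states. The changes of -0.37 (SE 0.42, edgeR adjusted p 0.547) and -0.37 (SE 0.37, edgeR adjusted p 0.483) could not be told from 0 at this depth.

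In total, 3 of the 10 genes passed the interaction of ISO and Dox (Sik2 higher with Dox, Crtc3 and Hdac7 lower), against 2.18% of all genes (1.61% higher and 0.57% lower). Under the stricter rule 2 passed (background 1.31%). Their response to ISO therefore differed between cells with and without Dox. In DMSO alone, Dox changed none of the 10 past the threshold in edgeR (background 1.18%), while 2 had an unadjusted p under 0.05, Crtc3 at 0.64 (SE 0.25, edgeR adjusted p 0.354) and Sik3 at 0.37 (SE 0.15, edgeR adjusted p 0.354). DESeq2 and limma-voom also called none. The summed adipocyte markers moved with this difference as well, being higher with ISO than DMSO when Dox was present and overlapping without it, and their part in the result was not tested. Abhd5 moved too, at 149 CPM in ISO without Dox against 52.6 CPM in DMSO, so these interactions compare ISO responses between cells whose Abhd5 RNA was itself changed by ISO.

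**Figure D3:**
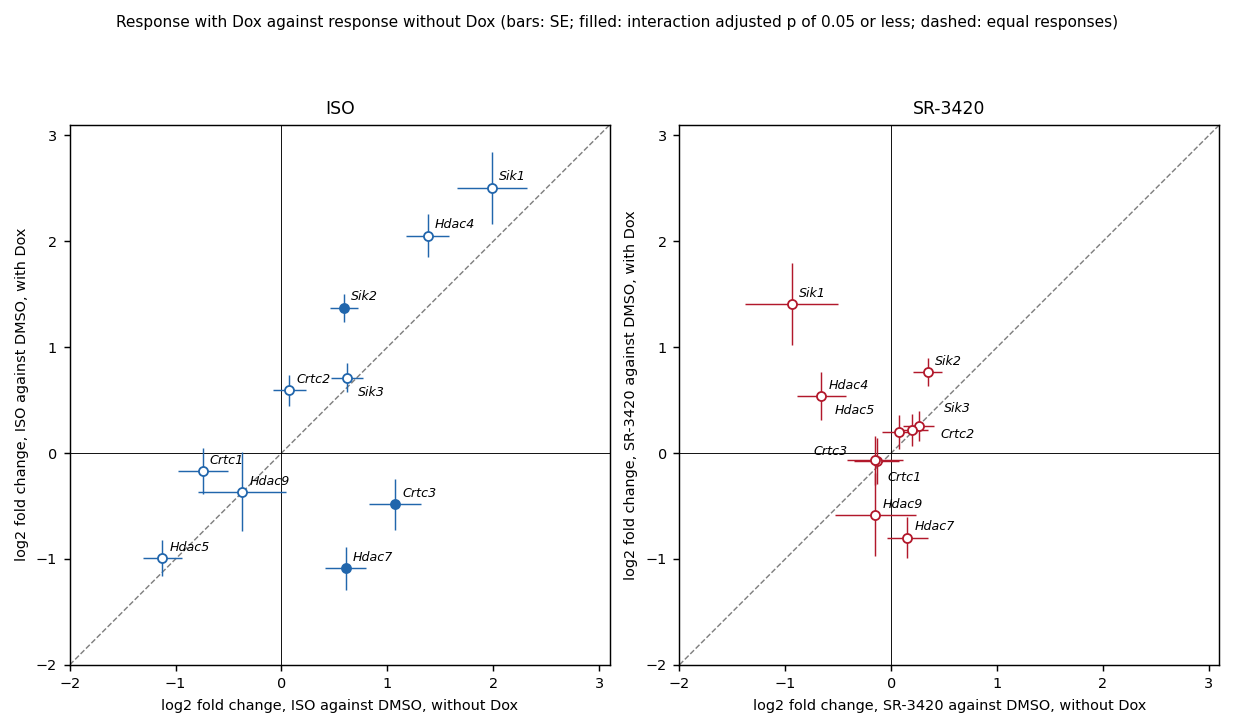
Log2 fold change with Dox (vertical) against that without Dox (horizontal) for ISO against DMSO on the left and SR-3420 against DMSO on the right, with SE bars; the dashed line marks equal responses and filled points passed the interaction test. Sik2 (0.59 and 1.37) lies above the line for ISO, and Crtc3 (1.07 and -0.48) and Hdac7 (0.60 and -1.09) lie far below it.

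SR-3420, which bypasses the receptor, changed Sik1, Sik2 and Hdac7 in cells with Dox. Without Dox none of the 10 passed in edgeR (background 0.766%), nor in DESeq2 or limma-voom, and 3 had an unadjusted p under 0.05. These were Hdac4 at -0.66 (SE 0.23, edgeR adjusted p 0.311), Sik1 at -0.94 (SE 0.44, edgeR adjusted p 0.536) and Sik2 at 0.34 (SE 0.13, edgeR adjusted p 0.382). With Dox 3 passed, 2 higher and 1 lower, against 9.9% of all genes (6.53% higher and 3.37% lower), and 1 under the stricter rule (background 3.1%). The median log2 fold change of the 10 genes was -0.03 without Dox and 0.21 with Dox, beside -0.00343 and -0.01 over all genes. Without SR-3420 with Dox replicate 1 the median with Dox was 0.17, beside -0.00741 over all genes, and the same 3 genes passed, against 6.19% of all genes. With the replicate number as a block, which pairs the libraries in both comparisons, all-gene calls went from 78 to 238 (2.34%) without Dox and from 1008 to 1568 (15.4%) with Dox, while 0 and 3 of the 10 genes passed as before. The summed adipocyte markers were higher in every SR-3420 library than in every DMSO library, both without Dox (3019 to 3259 against 2033 to 2251 CPM) and with Dox (3765 to 4724 against 2483 to 2668 CPM), and their part in these results was not tested.

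Sik2 rose with SR-3420 when Dox was present, from the DMSO values above to 369, 388 and 374 CPM, 3 libraries that hardly varied. Its log2 fold change was 0.76 (SE 0.13, edgeR adjusted p 0.000214), and 0.78 (edgeR adjusted p 0.00118) without SR-3420 with Dox replicate 1. Without Dox it was at 280, 261 and 259 CPM, all above the DMSO libraries but without passing. The interaction of SR-3420 and Dox was 0.42 (SE 0.19, edgeR adjusted p 0.362), and 0.44 (edgeR adjusted p 0.433) when that library was left out.

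Sik1 rose with SR-3420 and Dox to 14.9, 20.9 and 13.0 CPM, all above the DMSO libraries. Without Dox, SR-3420 libraries were at 4.06, 2.90 and 7.85 CPM, all below DMSO. The log2 fold change with Dox was 1.41 (SE 0.39, edgeR adjusted p 0.017) and was 1.47 (edgeR adjusted p 0.037) without SR-3420 with Dox replicate 1. It did not pass without DMSO with Dox replicate 1 (0.90, edgeR adjusted p 0.215) or SR-3420 with Dox replicate 2 (1.21, edgeR adjusted p 0.0859). The interaction of 2.35 (SE 0.59, edgeR adjusted p 0.0526) lay at the edge of the threshold, and 2.42 (edgeR adjusted p 0.0779) without SR-3420 with Dox replicate 1.

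Hdac7 fell with SR-3420 and Dox to 48.3, 45.7 and 40.9 CPM, below all DMSO libraries. Without Dox it was at 76.6, 68.5 and 59.6 CPM, overlapping the DMSO libraries. Its log2 fold change with Dox was -0.80 (SE 0.20, edgeR adjusted p 0.00798), -0.85 (edgeR adjusted p 0.0228) without SR-3420 with Dox replicate 1 and -0.66 (edgeR adjusted p 0.0798) without DMSO with Dox replicate 1. The interaction of -0.95 (SE 0.28, edgeR adjusted p 0.0973) did not pass, nor did it with SR-3420 with Dox replicate 1 left out (-1.0035, edgeR adjusted p 0.148).

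Hdac4 gave 42.2, 36.8 and 23.0 CPM in SR-3420 with Dox, overlapping DMSO (0.54, SE 0.23, edgeR adjusted p 0.149), and it passed without SR-3420 with Dox replicate 3 (0.75, edgeR adjusted p 0.0413) but not without replicate 1 (0.35, edgeR adjusted p 0.518). Without Dox its SR-3420 libraries were at 21.5, 17.4 and 21.97 CPM, below all 3 DMSO libraries. The interaction was 1.199 (SE 0.33, edgeR adjusted p 0.0779), and 1.0081 (edgeR adjusted p 0.246) without SR-3420 with Dox replicate 1. None of the 10 genes passed the interaction of SR-3420 and Dox in edgeR (background 0.757%) and none did in DESeq2, with 4 at an unadjusted p under 0.05 (Sik1, Sik2, Hdac4 and Hdac7), while limma-voom called Sik1 (2.59, adjusted p 0.0461). With the replicate number as a block, under which 3.33% of all genes passed (339 against 77), 3 of the 10 did, Sik1 at 2.37 (edgeR adjusted p 0.0151), Hdac4 at 1.23 (edgeR adjusted p 0.0161) and Hdac7 at -0.94 (edgeR adjusted p 0.0171). The numbers pair the libraries within each of the SR-3420 comparisons, while over the 4 groups of the interaction 14 of 18 pairs correlated over 0.1. For the remaining 6 genes none passed, and with Dox their log2 fold changes ran from -0.58 (Hdac9) to 0.26 (Sik3), or from -0.75 (Hdac9) to 0.21 (Crtc2) without SR-3420 with Dox replicate 1.

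ISO and SR-3420 were also compared directly in cells with Dox, at a single dose of each. Of the 10 genes 5 passed, with 4 higher and 1 lower in ISO, against 19.8% of all genes (10.4% higher and 9.43% lower), and 3 under the stricter rule (background 6.85%). Hdac4 was higher in ISO by 1.52 (SE 0.19, edgeR adjusted p 1.06e-06), Sik1 by 1.097 (SE 0.29, edgeR adjusted p 0.00749), Sik2 by 0.61 (SE 0.13, edgeR adjusted p 0.000921) and Sik3 by 0.45 (SE 0.14, edgeR adjusted p 0.0183). Hdac5 was lower in ISO by a log2 difference of -1.19 (SE 0.17, edgeR adjusted p 8.53e-06), with 223, 199 and 204 CPM in SR-3420 with Dox. Hdac7 was low with both, and the difference of -0.29 (SE 0.22, edgeR adjusted p 0.377) did not pass. Without SR-3420 with Dox replicate 1 the values were 1.73, 1.05, 0.62, 0.53 and -1.12 for Hdac4, Sik1, Sik2, Sik3 and Hdac5, and each passed. The Sik1 call was lost without ISO with Dox replicate 2 (0.88, edgeR adjusted p 0.0576), and the Sik3 call without ISO with Dox replicate 1 (0.42) or 3 (0.43) or SR-3420 with Dox replicate 3 (0.35).

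Genes for the kinases, phosphatases and partners of these proteins were counted by list, to be read against the shares of all genes that ISO raised (14.5%) or lowered (13.5%) without Dox and raised (16.4%) or lowered (16.1%) with Dox. Of 5 LKB1 complex genes, ISO lowered 1 without Dox, the pseudokinase scaffold Strada (-0.64, SE 0.23, edgeR adjusted p 0.0327), and 2 with Dox, Strada (-0.80) and Stradb (-1.18). Of 6 protein kinase A subunit genes, ISO raised 2 in each state. The regulatory subunit gene Prkar1a rose by 0.65 without and 0.79 with Dox. Prkar2a, also a regulatory subunit gene, rose by 0.80 (edgeR adjusted p 0.0136) without Dox and was at 0.58 (edgeR adjusted p 0.0513) with Dox. Prkar2b, another regulatory subunit, which passed with Dox only, was at 201, 162 and 199 CPM in DMSO without Dox, at 157, 212 and 203 CPM in ISO without Dox, at 217, 201 and 203 CPM in DMSO with Dox and at 775, 623 and 693 CPM in ISO with Dox. The rise with Dox was 1.75 on the log2 scale (SE 0.14, edgeR adjusted p 1.26e-10), and the interaction was 1.73 (SE 0.21, edgeR adjusted p 1.32e-05). SR-3420 with Dox raised it by 1.15 (SE 0.14, edgeR adjusted p 2.4e-06), and by 1.03 (edgeR adjusted p 4.5e-05) without SR-3420 with Dox replicate 1. SR-3420 also raised Prkar2b without Dox, to 323, 273 and 273 CPM (0.62, SE 0.15, edgeR adjusted p 0.0358), and its interaction of SR-3420 and Dox (0.53, SE 0.20, edgeR adjusted p 0.264) did not pass. Of 4 calcineurin genes ISO raised the catalytic subunit gene Ppp3ca (0.64) and lowered Ppp3cb (-0.45) without Dox, and none passed with Dox.

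The 14-3-3 genes, whose proteins hold phosphorylated CRTCs and HDACs in the cytoplasm, had 6 members tested, of which ISO raised 1 without Dox and 2 with Dox. Ywhag rose by 1.56 without and 1.02 with Dox, and Ywhab by 0.59 with Dox (interaction 0.73, edgeR adjusted p 0.0479). Of 8 other class IIa HDAC kinases tested, ISO lowered 3 without and 2 with Dox, namely Camk2g in each (-0.47 and -1.28), Camk1 (-0.89) and Prkd1 (-0.61) without Dox and Prkd3 (-0.55) with Dox. Of 7 AMPK-related kinases tested, 1 rose and 1 fell by ISO in each state, and they were not the same genes. Without Dox Mark4 rose (0.96, edgeR adjusted p 0.00188) and Melk fell (-0.85, edgeR adjusted p 0.00782), while Snrk was at 0.32 (edgeR adjusted p 0.241) and Mark2 at -0.36 (edgeR adjusted p 0.087). Snrk rose by 1.37 (SE 0.18, edgeR adjusted p 6.96e-07) with Dox, with an interaction of 1.05 (edgeR adjusted p 0.0311), and Mark2 fell (-0.43, edgeR adjusted p 0.027) with Dox, where Mark4 (0.17, edgeR adjusted p 0.602) and Melk (-0.25, edgeR adjusted p 0.434) did not pass. Camk1, Prkd1, Mark4 and Melk, and Hdac8 and Dusp1 below, were named after their values were seen. These counts stand beside shares of 28% of all genes passing in either direction without Dox and 32.5% with Dox, and nothing particular to the lists is read from them.

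Downstream, 13 of 17 listed CREB target genes were tested, and ISO raised 10 without Dox and 10 with Dox, where 1 also fell, the phosphatase gene Dusp1 (-1.22, edgeR adjusted p 0.0366). Of all genes, 14.5% and 16.4% rose. SR-3420 raised 3 of them with Dox, or 2 without SR-3420 with Dox replicate 1, and none without Dox, beside 6.53% of all genes raised with Dox. Their median log2 fold change by ISO was 1.59 without and 1.69 with Dox, beside the all-gene medians of -0.01 and -0.02. By mean CPM in DMSO and ISO, Pck1 went from 3.56 to 32.7 without Dox and from 6.66 to 310 with Dox. Ucp1 went from 0.297 to 70.3 CPM without Dox and from 0.882 to 241 CPM with Dox, on 0 to 1 counts per DMSO library. Ppargc1a, the thermogenic coactivator, rose by 2.19 without and 3.28 with Dox, and Irs2, the insulin receptor adaptor, by 1.27 and 1.94. No CREB target gene passed the interaction of ISO and Dox. That interaction passed for 2.18% of all genes, so with 13 genes tested nothing particular to the list is read from this. Of 5 genes for CREB family factors and their acetyltransferases, Crem rose in both states (1.46 and 1.69), and Creb1 (-1.24) and Ep300 (-0.57) fell with Dox.

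Of 3 MEF2 genes tested, ISO raised Mef2d, a partner of class IIa HDACs, by 0.76 without and 0.52 with Dox. Of 6 other HDAC genes, 1 rose (Hdac6, 0.54) and 1 fell (Hdac8, -0.82) without Dox, and 3 fell with Dox, Hdac10 (-1.10), Hdac11 (-1.82) and Hdac1 (-0.60). Of 9 adipocyte marker genes, 8 rose by ISO with Dox, while 2 rose and 1 fell without Dox. Of 5 preadipocyte marker genes tested, 1 rose and 1 fell without Dox and 2 fell with Dox. Ly6a, which rose, went from 2.03 to 2.72 CPM in DMSO to 22.5 to 26.8 CPM in ISO without Dox (3.29, SE 0.54, edgeR adjusted p 3.53e-05), on 2 to 3 counts per DMSO library, and did not pass with Dox (0.97, edgeR adjusted p 0.0677). Those that fell were Pdgfrb (-1.20 without and -0.78 with Dox) and Col1a1 (-0.51 with Dox). The 1 macrophage marker tested, Cd68, did not pass. Of all genes, 14.5% rose and 13.5% fell by ISO without Dox, and 16.4% rose and 16.1% fell with Dox.

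Genes beside or overlapping the members were also measured, because the counting is not stated to use strand. Hdac7 shares 29 bases at its 3′ end with Slc48a1, a heme transporter gene on the other strand. In ISO with Dox Slc48a1 was at 33.3, 72.5 and 45.2 CPM, against 90.03, 116 and 91.0 CPM in DMSO. It fell by ISO with Dox (-0.95, SE 0.21, edgeR adjusted p 0.00103) and by SR-3420 with Dox (-0.75, SE 0.21, edgeR adjusted p 0.0225), as Hdac7 did, but the latter call was lost without SR-3420 with Dox replicate 1 (-0.56, edgeR adjusted p 0.159). Without Dox it was at 75.6, 101 and 84.1 CPM in ISO and 65.0, 106 and 85.2 CPM in DMSO, which overlapped, and its interaction with ISO was -1.0003 (edgeR adjusted p 0.077). Vdr, the vitamin D receptor gene, lies 9925 bases upstream of Hdac7 on the same strand. It rose from 15.1 to 27.4 CPM in DMSO to 254 to 311 CPM in ISO without Dox and from 19.7 to 40.4 CPM to 305 to 327 CPM with Dox, in both states by similar log2 fold changes (3.66 and 3.46). Rapgef3, a cAMP-activated exchange factor gene 24998 bases away, held 2 to 27 counts per library and fell by ISO with Dox (-2.06, SE 0.60, edgeR adjusted p 0.00909). The part of the overlap in the Hdac7 values was not tested.

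**Figure D4:**
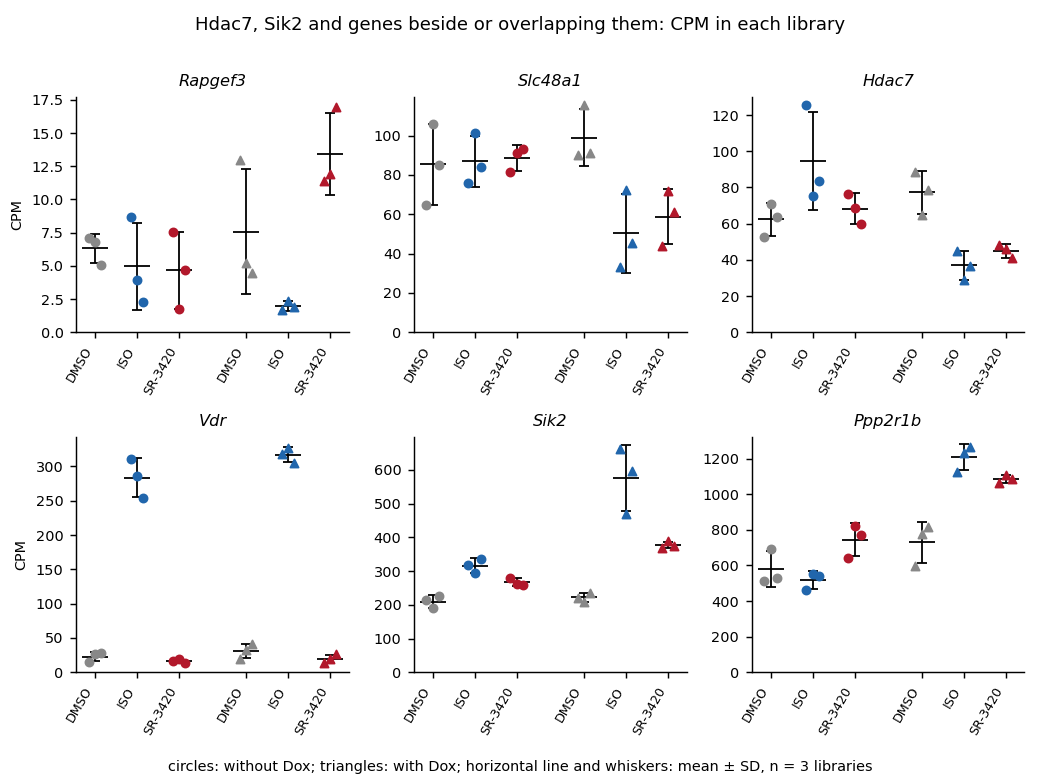
CPM in every library of Hdac7 and Sik2 and of genes that overlap or lie near them (circles without Dox, triangles with Dox; line and whiskers, mean ± SD of 3 libraries). Slc48a1 is lower in ISO with Dox (33.3 to 72.5 CPM) than in DMSO with Dox (90.03 to 116 CPM), as Hdac7 is, while Vdr is above 254 CPM in every ISO library.

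Sik2 overlaps Ppp2r1b, a protein phosphatase 2A scaffold subunit gene on the other strand, over 1429 bases. Ppp2r1b was at 511, 694 and 532 CPM in DMSO and 463, 554 and 538 CPM in ISO without Dox. With Dox it was at 599, 780 and 815 CPM in DMSO, 1127, 1235 and 1268 CPM in ISO and 1065, 1110.5 and 1084 CPM in SR-3420. It rose with Dox by 0.73 (ISO, SE 0.15, edgeR adjusted p 0.000451) and by 0.57 (SR-3420, SE 0.15, edgeR adjusted p 0.0128), and its interaction with ISO was 0.88 (SE 0.22, edgeR adjusted p 0.0251), the direction Sik2 showed. The part of the overlap in the Sik2 values was not tested. Alg9, 49162 bases from Sik2, rose with Dox by 0.99 (ISO) and 1.18 (SR-3420), and Layn, 47707 bases away, fell by SR-3420 with Dox (-0.95). Without SR-3420 with Dox replicate 1 the SR-3420 values were 0.59 for Ppp2r1b (edgeR adjusted p 0.0296), 1.04 for Alg9 (edgeR adjusted p 0.0269) and -1.01 for Layn, which no longer passed (edgeR adjusted p 0.0783). Beside Crtc1, Comp, 292 bases away on the other strand, fell by ISO without Dox (-1.68, SE 0.37, edgeR adjusted p 0.00114) and also with Dox (-1.48, SE 0.35, edgeR adjusted p 0.00148), where Crtc1 did not pass. Near Hdac5, Lsm12 rose by ISO with Dox (0.70), in the opposite direction to Hdac5. Hdac9, Hdac7 and Crtc2 also overlap GENCODE genes (4921508M14Rik, SNORA17, Gm17532 and Gm10973) that were not analysed here.

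Genes whose log2 CPM followed that of a member most closely over the 18 libraries were listed by Pearson r, as a description in which all points share libraries, treatments and depth. For Sik1 they were Tnfrsf1b (0.94), Slc25a25 (0.92) and Bdp1 (0.92). For Sik2 they were Pck1 (0.97), Cyth1 (0.97) and Gtf2ird1 (0.96). Hdac4 was followed by Zfp516 (0.97), Rab18 (0.95) and Limk1 (0.95), and Hdac5 by Cgnl1 (0.96), Lzts2 (0.95) and Tbx6 (0.94). For Sik3, Safb2 (0.94) was closest, for Hdac7 Cic (0.90), for Crtc2 Cpt2 (0.87), for Crtc3 Eya4 (0.82) and for Crtc1 E4f1 (0.81).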

How the data were processed

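RNA-seq reads from 18 libraries were, per the study's methods, aligned by the authors to mm9 with STAR 2.4.2a, kept once per position and read length with HOMER and counted with iRNA-seq in its gene mode. The deposited values are these raw counts. The methods call the replicates independent experiments. Here, counts of 17672 genes were filtered (filterByExpr, 10178 kept), scaled by TMM (0.768 to 1.13) and tested in edgeR 4.0.16 with 1 mean per group (quasi-likelihood test, two-sided, Benjamini-Hochberg over all genes tested, common dispersion 0.0176). SE was the log2 fold change divided by the root of F. The fit was tested on simulated data. Members and lists were chosen with earlier results of these data known. Named genes were the 10 members, Abhd5, at most 5 genes per list by their p in ISO with Dox, genes within 50 kb of a member that passed in the same contrast, and the 3 genes most alike a member. Same-numbered replicates deviated together (r 0.165 to 0.262 in ISO with Dox, 0.137 to 0.263 in SR-3420 without Dox and 0.123 to 0.247 in SR-3420 with Dox), so numbers pair libraries there. Libraries of a group differed beyond counting noise (chi-square per degree of freedom 2.35 to 25.4). Alternatives were RLE factors, library totals only, no filter, a minimum of 10 counts in all libraries, limma-voom (limma 3.58.1), DESeq2 1.42.0, the replicate block, only the contrast's groups, a log2 fold change of at least 1, and leaving out each library. Results for a further gene list are not reported here.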

Additional observations from a re-analysis of the deposited data

Results flagged for a closer look

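The response to ISO differed between cells with and without Dox for 3 of the 10 genes. The edgeR test of the difference itself passed for 2.18% of all genes. The log2 difference was 0.78 for Sik2 (SE 0.19, edgeR adjusted p 0.0231), -1.56 for Crtc3 (SE 0.34, edgeR adjusted p 0.0114) and -1.69 for Hdac7 (SE 0.28, edgeR adjusted p 0.000577). Crtc3 and Hdac7 passed in all 21 alternatives, whereas the call of Sik2 was lost in 7 of 21 (adjusted p up to 0.0836), including when any 1 of 5 libraries was left out. Sik2 and Hdac7 overlap Ppp2r1b and Slc48a1, with interactions of 0.88 and -1.0003, and the part of these overlaps was not tested.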

How the results depend on the processing

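The 31 results of single genes that passed in at least 1 setting were followed over 496 alternatives. No direction reversed, 452 kept their side of the threshold, 33 lost the call and 11 gained it. These results were chosen for passing, so the lack of reversals says little. With a log2 fold change of at least 1 also required, the genes passing went from 8 to 4 (ISO without Dox), 7 to 4 (ISO with Dox), 3 to 1 (SR-3420 with Dox) and 5 to 3 (ISO against SR-3420). The shares of all genes fell as well, from 28% to 10.9%, 32.5% to 13.1%, 9.9% to 3.1% and 19.8% to 6.85%, in the same order. On library totals only, where the all-gene median of ISO without Dox was -0.19 against -0.01 with TMM, that comparison passed for 5 (27.3% of all genes, against 28%). The interaction of SR-3420 and Dox passed for 0 genes (0.757% of all), but for 2 without a filter on low counts (Sik1 2.31 and Hdac7 -0.996, 0.977% of all), 1 with limma-voom (0.668%) and 3 with the replicate block (3.33%, Sik1 2.37, Hdac4 1.23 and Hdac7 -0.94). Not every same-numbered pair correlated over 0.1 in that contrast. The same held for ISO without Dox, Dox in DMSO, the interaction of ISO and Dox and ISO against SR-3420. Over all 45 same-numbered pairs r was 0.0386 to 0.277 (median 0.149), beside a median of -0.0922 for pairs with different numbers. The limit of 0.1 was a choice, so the numbers may pair libraries in these contrasts too. The main fit takes no account of pairing. The block on the interaction of SR-3420 spans a pair of comparisons within which every same-numbered pair correlated over 0.1. The block also added Crtc2 (0.38, edgeR adjusted p 0.0198) in ISO against SR-3420, which makes 6 genes, and changed no other call. The share of all genes passing there was 27.2% with the block and 19.8% without it. Why these calls changed was not tested. Leaving out 1 library gave 7 to 8 genes for ISO without Dox (19.4% to 25% of all genes) and 7 to 7 for ISO with Dox (24.9% to 29.3%). It gave 0 to 0 for SR-3420 without Dox (0.268% to 0.515%) and for Dox in DMSO (0.738% to 1.39%). SR-3420 with Dox gave 1 to 4 (6.19% to 8.1%), with 1 when DMSO with Dox replicate 1 was left out. The interaction of ISO and Dox gave 2 to 3 (1.06% to 2.92%) and that of SR-3420 gave 0 to 1 (0.272% to 0.651%). ISO against SR-3420 gave 4 to 5 (14.6% to 17.3%). In the interaction of SR-3420, leaving out replicate 3 of SR-3420 without Dox (2.77) or replicate 2 of DMSO with Dox (2.56) added Sik1, and leaving out replicate 3 of SR-3420 with Dox added Hdac4 (1.41), in fits that called 0.272%, 0.641% and 0.651% of all genes. Sik1 and Hdac9 had too few counts for the filter of 10 in every sample and give no value there. Depth limits Sik1 and Hdac9 most.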
